A study of Mus musculus with 6 samples.

Results

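The homeobox and Zic regulators examined here were the 59 mouse genes, of 22180 with a probe set of their own on the array, whose symbols belong to the Dlx, Lhx, Nkx, Irx, Msx, Meis, Pbx, Pitx, Prrx, Otx, Emx, En and Zic families, with Six2 to Six6. They were chosen by symbol, with earlier results of these data known. The probe set with the greatest average over the 6 arrays stood for each gene. Dlx1 and Msx1 lay only on probe sets that carry several symbols and have no value here. Total RNA was measured on single-colour Affymetrix arrays in 6 samples, 1 per group. The groups were induced parvalbumin (iPV) cells of day 14 that had been sorted by green fluorescence, a sample labelled endogenous parvalbumin neurons, mouse embryonic fibroblasts (MEF), and unsorted iPV cells 3, 7 and 14 days after induction.

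All 6 groups carry the PV-GFP transgene, which marks parvalbumin neurons with green fluorescent protein, on a C57BL/6 background, and all 6 labels name embryos of 13.5 days. The labels describe induction as infection of cultured fibroblasts with adenovirus, attach that text to all 6 samples, and do not name the factors delivered. Whether cells were pooled from several embryos is not given in the sources used here. Parvalbumin interneurons are inhibitory neurons of the brain, and the series asked how the expression profile of fibroblasts develops during induction toward them.

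Homeobox genes encode transcription factors that bind DNA through a homeodomain and give cells of an embryo their regional and cell-type identity. In the ventral forebrain, Nkx2-1 specifies the medial ganglionic eminence, the birthplace of parvalbumin interneurons, and acts through Lhx6 and Lhx8, while Dlx genes drive the GABAergic program. Fibroblasts of trunk and limb keep homeobox genes of mesenchyme, such as Prrx1, as a record of position. Meis and Pbx proteins belong to the TALE class, which binds DNA together with Hox proteins, and Zic proteins are zinc finger factors related to the Gli effectors of hedgehog signalling.

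Values are log2 intensities as the authors deposited them. Values under 5.01, the median of all probe sets that are not controls, were raised to this floor before differences were taken, and where only 1 of the 2 values lay under it the fold is a minimum, given as "at least". A gene was counted when it differed by at least 2-fold, a log2 difference of 1. No group has a replicate, so no difference has a replicate check or a test and each describes the arrays compared. A technical spread, from genes with several probe sets, was 0.32 to 0.50 on the log2 scale over the 7 comparisons. This spread compares probe sets on the same arrays, leaves out variation between cultures and does not replace replicates. Against MEF it was 0.50 for sorted cells, 0.42 for the endogenous-labelled array, and 0.32, 0.38 and 0.43 for days 3, 7 and 14.

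The labels were set against marker genes before the regulators were read. Of 8 parvalbumin interneuron markers, 4 were above the floor on the endogenous-labelled array and 3 in MEF, and Gad2, Kcnc1, Kcnc2 and Erbb4 were under it on all 6 arrays. Pvalb itself had 5.48 on the endogenous-labelled array, against 5.23 in MEF. All 10 fibroblast markers were above the floor on every array, and their summed intensity, on the log2 scale, was 15.18 on the endogenous-labelled array and 15.01 in MEF. The markers therefore go against that label, and the array is called endogenous-labelled throughout. Neuronal markers had a summed log2 intensity of 10.04 in sorted cells, against 9.47 in unsorted cells of day 14 and 9.12 in MEF. Of the 8 interneuron markers, only 2 were above the floor in sorted cells, Pvalb at 6.29 and Syt2 at 5.14. Gad1 at 4.68 and Slc32a1 at 4.46 were under it there. The interneuron list therefore does not establish the identity of the sorted cells, and the names of the induced groups are those of the labels.

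The regulators differed widely in whether they were above the floor. Of the 59, 26 (44.1%) were above the floor on all 6 arrays, 15 on some arrays and 18 (30.5%) on none, against 49.6% and 35.6% of all genes on all and on no arrays. The number above the floor was 35 in sorted cells, 34 on the endogenous-labelled array, 36 in MEF, 34 at day 3, 39 at day 7 and 37 at day 14. The 18 under the floor throughout were Dlx4, Dlx5, Dlx6, En2, Irx4, Irx6, Lhx3, Lhx4, Lhx5, Msx2, Nkx2-1, Nkx2-3, Nkx3-2, Nkx6-1, Otx2, Six3, Six6 and Zic4. In bulk RNA, a lower share of expressing cells and a lower level in each cell cannot be told apart.

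**Figure D1:**
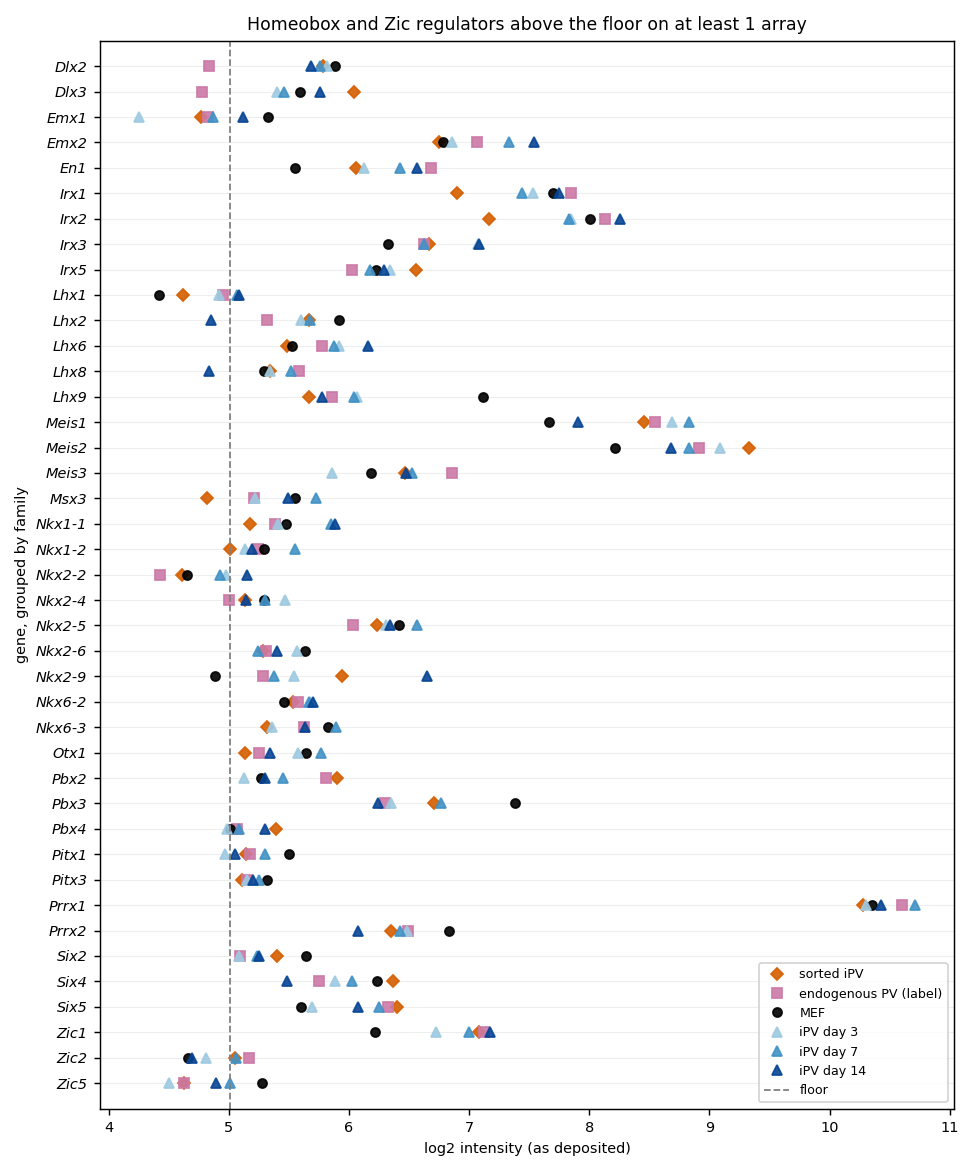
Log2 intensity (horizontal axis) of the 41 regulators above the floor on at least 1 array, 1 gene per row and 1 symbol per array, with the floor of 5.01 as a dashed line. Most rows are narrow. MEF is the highest value in Lhx9 and Pbx3 and the lowest in En1, Zic1, Meis1 and Meis2, with day 14 only 0.24 above it in Meis1.

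Over the 7 comparisons, 16 differences reached 2-fold, and they belonged to 8 genes: Lhx9, Pbx3, Meis1, Meis2, En1, Nkx2-9, Irx2 and Dlx3. A 2-fold range between the highest and lowest of the 6 arrays was found in 9 of 59 members (15.3%), against 11.5% of all genes, the ninth being Meis3. Without the endogenous-labelled array the count of members was 7. The share of all genes was not computed without that array, and leaving out an array can only narrow a range, so the lower count says nothing particular to the members. A floor at percentile 75 of all values (6.58) in place of the median ended the calls of Lhx9, Pbx3, En1, Nkx2-9 and Dlx3.

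At day 3, 1 of 59 members was at least 2-fold higher than in MEF and 2 were lower, where 1.43% of all genes were higher and 1.64% lower. Day 7 had 1 higher and 1 lower, with a background of 1.7% and 0.843%. By day 14 there were 2 higher and 2 lower, with 2.1% and 1.26%. Sorted cells had 1 higher and 1 lower than MEF, with 3.67% and 1.64%. The endogenous-labelled array had 1 higher and 2 lower than MEF, with 2.13% and 0.969%. All 5 of these comparisons share the MEF array, so a gene that is high or low in MEF appears in each of them. Between sorted and unsorted cells of day 14, 0 members were higher and 1 was lower, with 1.26% and 0.609% of all genes, and between sorted cells and the endogenous-labelled array 1 was higher and 0 were lower, with 1.36% and 1.14%.

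The 36 members whose mean over the 6 arrays exceeded the floor had median log2 differences near 0, set beside 12600 genes that met the same condition. Against MEF the members' median was -0.09 in sorted cells, where all such genes had 0.11, and -0.07 on the endogenous-labelled array, where they had 0.05. It was -0.07 at day 3, 0.14 at day 7 and 0.04 at day 14, and the medians of all such genes were 0.03, 0.03 and 0.08. The medians were -0.10 for members and 0.02 for all such genes between sorted and unsorted day 14 cells, and -0.04 and 0.06 between sorted cells and the endogenous-labelled array. These medians describe the arrays compared and have no test.

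**Figure D2:**
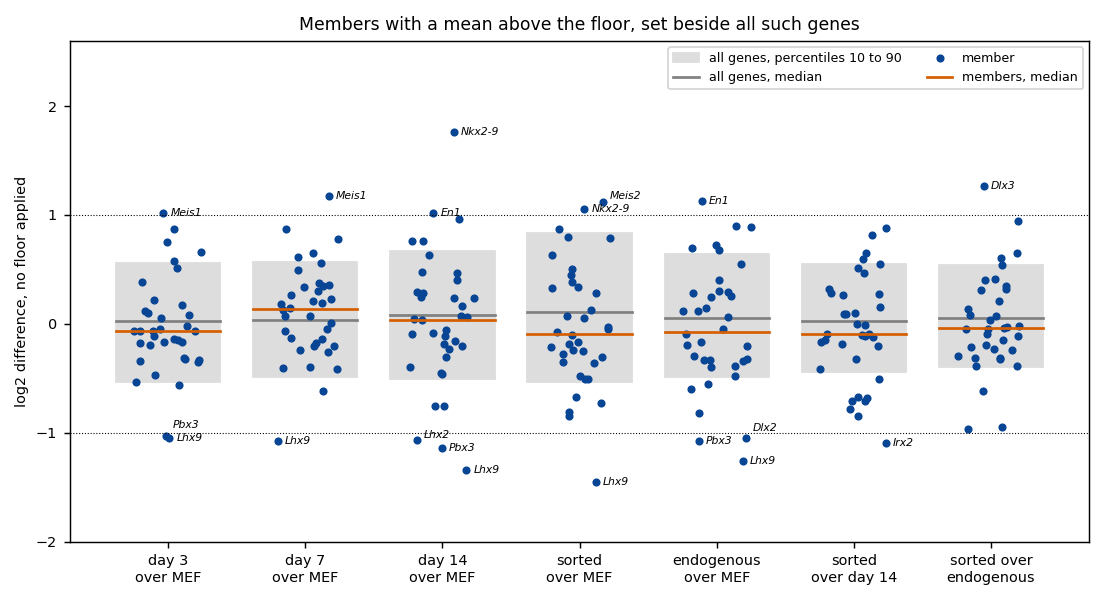
Log2 differences without a floor (vertical axis) of the 36 members with a mean above the floor, in 7 comparisons, as points, with the members' median in orange and, for all 12600 such genes, the median and the span from percentile 10 to 90 in grey. Points past the dotted lines at 2-fold carry gene names, and in some of them, such as Lhx2 at day 14 and Dlx2 on the endogenous-labelled array, 1 value lies under the floor, so they were not counted.

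Of the regulators of the interneuron lineage, Nkx2-1, Dlx5 and Dlx6 were under the floor on all 6 arrays, so floored values could not show a difference. Lhx6, Lhx8 and Dlx2 did not reach 2-fold with the floor in any of the 7 comparisons. Without the floor, Dlx2 was 1.05 lower on the endogenous-labelled array than in MEF on the log2 scale. Nkx2-1, the eminence regulator, lay between 4.36 at day 3 and 4.69 in MEF, under the floor throughout. Lhx6, which directs the migration and maturation of interneurons born there, had 5.48 in sorted cells, 5.78 on the endogenous-labelled array, 5.53 in MEF, 5.91 at day 3, 5.88 at day 7 and 6.16 at day 14. Day 14 was the high value, 0.63 above MEF on the log2 scale, while sorted cells lay 0.68 below unsorted cells of the same day. Lhx8, which acts in cholinergic neurons and in the tooth and palate, lay between 4.83 at day 14 and 5.58 on the endogenous-labelled array.

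Among Dlx genes, Dlx5 and Dlx6, which maintain the GABAergic program, stayed below the floor, with highest values of 4.40 and 4.62. Dlx2, an early regulator of GABAergic precursors, had 5.78 in sorted cells, 4.84 on the endogenous-labelled array, 5.88 in MEF, 5.82 at day 3, 5.76 at day 7 and 5.68 at day 14. It was level on the 5 other arrays and low on the array labelled as endogenous interneurons, where it was at least 1.83-fold lower than in MEF. This value lies under the floor, so a 2-fold difference could not be measured. Dlx3, a gene of epidermis, placenta and bone, had 6.04 in sorted cells, 4.77 on the endogenous-labelled array, 5.59 in MEF, 5.40 at day 3, 5.46 at day 7 and 5.76 at day 14. It was at least 2.04-fold higher in sorted cells than on the endogenous-labelled array, a call that was lost after quantile normalization. Dlx4 lay between 4.72 and 4.97.

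Lhx9, a LIM-homeodomain gene of gonad, limb and brain development, was lower on the 5 other arrays than in MEF. It had 5.66 in sorted cells, 5.85 on the endogenous-labelled array, 7.11 in MEF, 6.06 at day 3, 6.04 at day 7 and 5.77 at day 14. The 5 lower values span a narrow range, and none overlaps MEF. Its log2 difference from MEF was -1.45 in sorted cells (2.73-fold lower), -1.26 on the endogenous-labelled array, -1.05 at day 3, -1.07 at day 7 and -1.34 at day 14, between 2.86 and 3.29 times the technical spread. These ratios are no separate support, since differences were counted by size. All 16 that reached 2-fold lay between 2.22 and 3.81 times the spread. In its family, Lhx2, a regulator of forebrain and hair follicle stem cells, had 4.85 at day 14 and between 5.31 and 5.91 elsewhere. Lhx1, a gene of kidney and spinal cord, lay between 4.42 and 5.08.

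Pbx3, a TALE partner of Hox proteins, was also highest in MEF. It had 6.71 in sorted cells, 6.30 on the endogenous-labelled array, 7.38 in MEF, 6.34 at day 3, 6.76 at day 7 and 6.24 at day 14. Its log2 difference from MEF reached 2-fold at day 3 (-1.03), at day 14 (-1.14) and on the endogenous-labelled array (-1.08), and was -0.61 at day 7 and -0.67 in sorted cells. The other Pbx genes moved less. Pbx2 had 5.90 in sorted cells, 5.81 on the endogenous-labelled array, 5.26 in MEF, 5.12 at day 3, 5.45 at day 7 and 5.30 at day 14, and Pbx4 lay between 4.99 at day 3 and 5.39 in sorted cells.

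Meis1 and Meis2, whose proteins bind DNA with Pbx and Hox proteins, were lowest in MEF. Meis1 had 8.46 in sorted cells, 8.55 on the endogenous-labelled array, 7.66 in MEF, 8.69 at day 3, 8.83 at day 7 and 7.90 at day 14. It was 2.03-fold higher at day 3 and 2.25-fold higher at day 7 than in MEF, and the day 3 call was lost under both other scalings of the arrays. The day 14 value was 0.24 above MEF, less than the technical spread of 0.43. Meis2, which is also known for its role in the striatum and limb, had 9.33 in sorted cells, 8.92 on the endogenous-labelled array, 8.22 in MEF, 9.09 at day 3, 8.83 at day 7 and 8.68 at day 14. The sorted cells were high and 2.17-fold above MEF, and the remaining differences from MEF lay between 0.47 at day 14 and 0.88 at day 3. Meis3 ran otherwise, with 6.47 in sorted cells, 6.86 on the endogenous-labelled array, 6.18 in MEF, 5.86 at day 3, 6.52 at day 7 and 6.47 at day 14.

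En1, an engrailed gene of the midbrain-hindbrain boundary, the ventral limb and the dermis, was lowest in MEF. It had 6.06 in sorted cells, 6.68 on the endogenous-labelled array, 5.55 in MEF, 6.13 at day 3, 6.43 at day 7 and 6.57 at day 14. Values along the induction course became higher with time, and sorted cells lay 0.51 below unsorted cells of day 14. En1 was 2.02-fold above MEF at day 14 and 2.18-fold on the endogenous-labelled array. The day 14 call was lost when arrays were centred on housekeeping genes. En2, its paralogue of cerebellum and midbrain, was under the floor throughout, at most 4.78.

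RefSeq promoter sequences were matched by symbol for 44 of the 59 genes, with 52 transcript starts. The 250 bases before the start are printed for Lhx9 and En1, members with a 2-fold difference in opposite directions, and for Meis1 and Meis2, whose proteins bind the letters TGACAG. In build GRCm38.p6 the windows are chr1:138842445-138842694 (minus strand) for Lhx9, chr1:120602237-120602486 (plus strand) for En1, chr11:19018970-19019219 (minus strand) for Meis1 and chr2:116064620-116064869 (minus strand) for Meis2, each read 5′ to 3′ on the strand of its gene. Capitals mark TGACAG or its reverse complement CTGTCA, searched on both strands. The letters occur once in the Lhx9 window and once in the En1 window, and not in those of Meis1, Meis2 and Nkx2-9. They were found in 10 of the 52 windows (19.2%) and in 15.9% of 32851 windows of all genes. The homeodomain core TAATTA, which does not overlap them, was found in 4 of the 52 (7.69%) and in 4.84% of all. A match describes the letters and not a bound site, and each window is that of 1 transcript start, which for Lhx9, Meis1 and Meis2 lies inside the RefSeq span of the gene.
Lhx9: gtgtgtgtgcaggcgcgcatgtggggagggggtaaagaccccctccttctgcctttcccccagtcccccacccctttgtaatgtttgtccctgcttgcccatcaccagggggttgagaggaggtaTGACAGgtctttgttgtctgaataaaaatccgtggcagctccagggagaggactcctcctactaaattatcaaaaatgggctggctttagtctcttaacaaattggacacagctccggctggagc
En1: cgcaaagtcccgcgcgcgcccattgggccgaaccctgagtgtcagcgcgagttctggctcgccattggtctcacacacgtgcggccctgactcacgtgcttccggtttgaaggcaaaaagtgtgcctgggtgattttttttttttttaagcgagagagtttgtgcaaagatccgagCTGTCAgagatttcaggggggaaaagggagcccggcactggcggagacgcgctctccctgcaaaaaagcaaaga
Meis1: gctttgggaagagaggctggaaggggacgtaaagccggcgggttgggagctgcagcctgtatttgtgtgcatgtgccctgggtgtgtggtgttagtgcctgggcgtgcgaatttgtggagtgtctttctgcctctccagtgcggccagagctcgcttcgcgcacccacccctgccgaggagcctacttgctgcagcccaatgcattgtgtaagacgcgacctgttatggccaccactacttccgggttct
Meis2: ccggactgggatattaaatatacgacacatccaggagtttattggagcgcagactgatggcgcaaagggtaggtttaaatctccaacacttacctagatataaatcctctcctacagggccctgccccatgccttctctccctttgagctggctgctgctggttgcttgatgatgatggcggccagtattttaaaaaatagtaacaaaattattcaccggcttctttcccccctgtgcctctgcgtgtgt

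Zic1, a zinc finger gene of cerebellum, dorsal neural tube and somite derivatives, had the same order along the course but stayed short of 2-fold. It had 7.08 in sorted cells, 7.12 on the endogenous-labelled array, 6.22 in MEF, 6.73 at day 3, 6.99 at day 7 and 7.18 at day 14. It lay above MEF by 0.87 in sorted cells, by 0.90 on the endogenous-labelled array and by 0.96 at day 14, with MEF below all 5. Zic4, the neighbour of Zic1 on chromosome 9, was under the floor on all 6 arrays, between 4.27 at day 7 and 4.86 at day 3. Zic2, known for its role in forebrain and retina, lay between 4.66 and 5.17, and Zic5, its neighbour, between 4.50 at day 3 and 5.27 in MEF.

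Nkx2-9, a gene of the ventral neural tube, had the largest difference among the members. It had 5.94 in sorted cells, 5.29 on the endogenous-labelled array, 4.88 in MEF, 5.54 at day 3, 5.37 at day 7 and 6.65 at day 14. The unsorted day 14 array stood highest, at least 3.11-fold above MEF, and sorted cells of the same day lay 0.71 lower. Its neighbour Nkx2-1 stayed under the floor. Among the other Nkx genes, Nkx2-5, a regulator of heart development, lay between 6.03 on the endogenous-labelled array and 6.56 at day 7, and Nkx2-2, its relative in the ventral spinal cord, between 4.43 on that array and 5.15 at day 14.

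**Figure D3:**
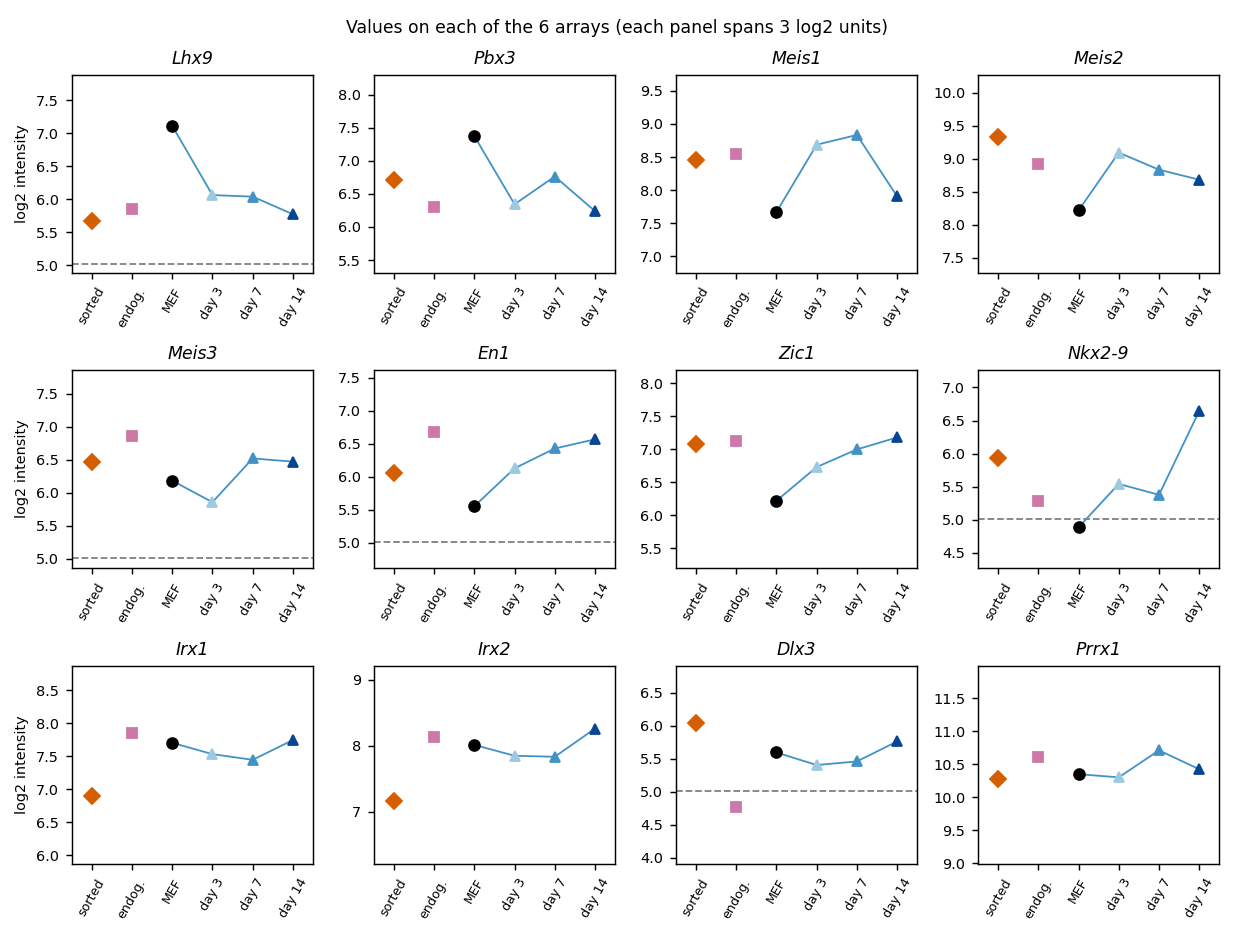
Log2 intensity (vertical axis, 3 log2 units in every panel) of 12 regulators on the 6 arrays, with sorted cells and the endogenous-labelled array at the left and the course from MEF to day 14 joined by a line, and the floor of 5.01 dashed where it is in view. MEF is high in Lhx9 and Pbx3 and low in Meis1, Meis2, En1 and Zic1, sorted cells are low in Irx1 and Irx2, and Prrx1 lies between 10.28 and 10.71.

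Irx1 and Irx2, neighbours on chromosome 13 that pattern limb, heart and neural tissue, were lowest in sorted cells. Irx1 had 6.90 in sorted cells, 7.85 on the endogenous-labelled array, 7.70 in MEF, 7.53 at day 3, 7.44 at day 7 and 7.74 at day 14. Irx2 had 7.16 in sorted cells, 8.13 on the endogenous-labelled array, 8.01 in MEF, 7.85 at day 3, 7.83 at day 7 and 8.26 at day 14. For both genes the sorted value lay under all 5 others. Sorted minus unsorted day 14 differences were -1.09 for Irx2 (2.13-fold lower) and -0.85 for Irx1, against a technical spread of 0.33 in that pair. Irx4, the third gene of this cluster, was under the floor throughout. In the second cluster, on chromosome 8, Irx3 lay between 6.32 and 7.08 and Irx5 between 6.02 and 6.56.

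Several marker lists differed between these arrays, and their part in the results was not tested. Macrophage markers, 8 of 9 annotated, had a summed log2 intensity of 8.55 in sorted cells, 11.03 on the endogenous-labelled array, 10.76 in MEF, 8.46 at day 3, 9.39 at day 7 and 9.38 at day 14, with Adgre1 at 3.84 in sorted cells. The endogenous-labelled array and MEF had the highest sums of this list. Fibroblast markers summed to 14.81 in sorted cells and 14.92 in unsorted cells of day 14. Skeletal muscle markers summed to 9.08 in sorted cells, 7.89 on the endogenous-labelled array, 7.70 in MEF, 8.70 at day 3, 8.82 at day 7 and 8.42 at day 14. The intermediate filament gene Des was the brightest of them on the 5 arrays other than MEF, and the actin gene Acta1 in MEF. Des was the only 1 of the 5 listed genes to reach 2-fold against MEF, higher by 3.17 in sorted cells. Acta1, Myod1 and Myog differed there by 0.35, 0.44 and -0.14. Of all genes, 3.67% were at least 2-fold higher in sorted cells than in MEF.

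The Prrx, Pitx and Msx genes, which act in mesenchyme, limb and head, did not reach 2-fold in any of the 7 comparisons. Prrx1, which marks limb and craniofacial mesenchyme, had 10.28 in sorted cells, 10.61 on the endogenous-labelled array, 10.35 in MEF, 10.30 at day 3, 10.71 at day 7 and 10.43 at day 14. The 6 values lie close together, sorted cells included. Prrx2, its paralogue, had 6.35 in sorted cells, 6.49 on the endogenous-labelled array, 6.83 in MEF, 6.49 at day 3, 6.42 at day 7 and 6.07 at day 14. Pitx1, which gives the hindlimb its identity, lay between 4.96 at day 3 and 5.50 in MEF, and Pitx3, a gene of lens and dopaminergic neurons, between 5.10 and 5.32. Msx2, a BMP-responsive gene of limb and skull, was under the floor throughout and Msx3 had values of 4.82 to 5.73.

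The remaining families held smaller differences. Emx2, a gene of cortex and urogenital tissue, had 6.75 in sorted cells, 7.06 on the endogenous-labelled array, 6.78 in MEF, 6.86 at day 3, 7.34 at day 7 and 7.54 at day 14. Sorted cells were at the MEF level and 0.78 below unsorted cells of day 14. Six4, a gene of muscle precursors, had 6.36 in sorted cells, 5.75 on the endogenous-labelled array, 6.23 in MEF, 5.89 at day 3, 6.02 at day 7 and 5.48 at day 14, and was 0.88 higher in sorted than in unsorted cells of day 14. Six5 had 6.40 in sorted cells and 5.60 in MEF, and Six2, a regulator of kidney progenitors, between 5.08 at day 3 and 5.64 in MEF. Otx1, a gene of forebrain and sense organs, lay between 5.13 and 5.77, and Emx1, a cortical gene, between 4.25 and 5.32.

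The partners of these factors were read from lists chosen with earlier results of these data known. Of 6 TALE partners, 2 were at least 2-fold higher in sorted cells than in MEF, 0 on the endogenous-labelled array, 2 at day 3, 0 at day 7 and 1 at day 14, and 0 were lower. The shares of all genes that were higher were 3.67% in sorted cells, 2.13% on the endogenous-labelled array, 1.43% at day 3, 1.7% at day 7 and 2.1% at day 14. Between 0.843% and 1.64% of all genes were lower. The partners counted were Pknox2, a Pbx partner of the Meis type, and Mkx, which acts in tendon. Pknox2 had 8.34 in sorted cells, 6.52 on the endogenous-labelled array, 5.89 in MEF, 7.12 at day 3, 6.48 at day 7 and 6.66 at day 14. Mkx had 7.64 in sorted cells, 6.23 on the endogenous-labelled array, 5.69 in MEF, 7.17 at day 3, 5.59 at day 7 and 6.73 at day 14. For both, sorted cells were the highest, while Pknox1 lay between 6.13 and 6.49.

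Of 13 genes of the LIM cofactor list, 1 was at least 2-fold lower than MEF in each of the 5 comparisons, where between 0.843% and 1.64% of all genes were. This was Ldb2, an adaptor that binds LIM-homeodomain proteins such as Lhx9, with 6.36 in sorted cells, 7.09 on the endogenous-labelled array, 8.39 in MEF, 6.83 at day 3, 6.92 at day 7 and 6.54 at day 14. Like Lhx9, it was highest in MEF. Lmo4, a LIM-only protein, was higher than MEF by 1.02 at day 7 and by 1.37 on the endogenous-labelled array. At day 7 and on that array, 1.7% and 2.13% of all genes were at least 2-fold higher. Ldb1 differed from MEF by at most 0.60. Of 10 Eya, Dach and Pax genes, 0 reached 2-fold against MEF. Over these comparisons, 1.43% to 3.67% of all genes were higher and 0.843% to 1.64% lower. Eya4, a coactivator of the proteins that Six4 and its relatives encode, had 7.41 in sorted cells and 6.15 in unsorted cells of day 14. It was the only 1 of the 10 to reach 2-fold in that pair, where 1.26% of all genes were higher. Pax3 was at -0.46 there, and the median of the 6 listed genes with a mean above the floor was -0.05. Of 9 annotated hedgehog pathway genes 1 reached 2-fold against MEF, Gli2, higher by 1.03 on the endogenous-labelled array, where 2.13% of all genes were higher.

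Of 13 other annotated regulators of interneuron identity, 3 were at least 2-fold higher in sorted cells than in MEF and 0 lower, where 3.67% of all genes were higher and 1.64% lower. At day 14 1 was higher, with 2.1% of all genes, on the endogenous-labelled array 1, with 2.13%, and at days 3 and 7 0, with 1.43% and 1.7%. Prox1, a gene of interneurons from the caudal eminence and of other tissues, had 7.84 in sorted cells, 6.20 on the endogenous-labelled array, 3.85 in MEF, 5.96 at day 3, 5.67 at day 7 and 6.06 at day 14. Sorted cells stood above all others, and MEF was under the floor. Nr2f1 and Nr2f2, nuclear receptors of caudal interneurons and of mesenchyme, differed from MEF by 1.05 and 1.13 in sorted cells. At day 14, where Nr2f1 was under the floor, its difference from MEF was -0.28. Maf, of the same list, went the other way, with differences from MEF of -0.58 in sorted cells and -0.86 at day 14. The median of listed genes with a mean above the floor was 0.65 in sorted cells and -0.04 at day 14. Of 23 annotated mesenchyme and limb regulators, 2 were higher in sorted cells, Alx1 by 1.14 and Foxc2 by 1.01, and 0 lower, where 3.67% of all genes were higher and 1.64% lower. At day 3 1 was higher, Twist2 by 1.34, and 1 lower, Osr1 at -1.20, with 1.43% and 1.64% of all genes. Of 8 annotated corepressors 0 reached 2-fold, where 3.67% of all genes were higher and 1.64% lower in sorted cells against MEF. Their median log2 difference from MEF was 0.82 in sorted cells, where all genes above the floor had 0.11.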

How the data were processed

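Total RNA of 6 samples (6 µg each, per the labels' protocols) was hybridised to 1 Affymetrix array each. The authors deposited 1 table of log2 values. Per the submitters' processing notes, Affymetrix Expression Console was used. Its version, the summarisation and the normalization are not stated, so differences between arrays carry any scaling the authors made. The log2 scale was read from the values. Detection calls were not used, and signal over background limits the precision at low values.

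Of 41345 probe sets, 5333 numbered below the first annotated one were treated as controls. Platform annotation gave 1 symbol for 23521, several for 1814 and none for 10677; Entrez identifiers of 23328 were found in RefSeq (GRCm38.p6, used for names, neighbours and promoters), which changed 0 symbols. The 59 members had 62 probe sets, and 3 members had more than 1. The authors' log2 values were floored at the median, and differences were counted at 1 or more. The technical spread is the standard deviation of the difference between the log2 differences of the 2 brightest probe sets of a gene (327 to 403 genes per comparison), divided by the square root of 2. It leaves out variation between cultures and includes differences between transcripts. With 1 array per group no test was made. Every member that reached 2-fold is given on every array, and up to 4 genes per partner list were eligible to be named. Members and lists were chosen with earlier results of these data known. Alternatives were quantile normalization, housekeeping centring, the mean of probe sets, no floor, a floor at percentile 75 (6.58) and a 4-fold threshold. Counting was tested on simulated data. Python 3.11.15, pandas 2.3.3, numpy 2.4.6 and matplotlib 3.10.9 were used.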

Additional observations from a re-analysis of the deposited data

How the results depend on the processing

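Of the 16 differences that reached 2-fold, quantile normalization kept 14, housekeeping centring 14, the mean of probe sets 16, no floor 16, the floor at percentile 75 only 4, and 4-fold 0. The 16 kept with the mean of probe sets and with no floor were fixed in advance. Each gene called has a single probe set, and removing the floor cannot shrink a difference. None of these 16 changed sign, which only quantile normalization could have brought about. Quantile normalization gave 0 members higher at day 3 (Meis1 lost), 2 lower in sorted cells against MEF, and 0 higher and 2 lower in sorted cells against the endogenous-labelled array. Housekeeping centring gave 0 higher at day 3 (Meis1) and 1 higher at day 14 (En1 lost). No floor gave 2 higher in sorted cells against MEF, since Nkx2-9 was then counted, and 3 lower in place of 2 at day 3 (Emx1 added), at day 14 (Lhx2) and on the endogenous-labelled array (Dlx2). The floor at percentile 75 lies above most of these genes and left 0 lower at days 3, 7 and 14, in sorted cells and on the endogenous-labelled array against MEF, 0 higher at day 14 and on the endogenous-labelled array against MEF, and 0 higher in sorted cells against that array. Its 4 remaining differences were those of Meis1, Meis2 and Irx2. At 4-fold every count of members was 0.

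Of the 7 member medians, 3 changed sign under an alternative. With the floor at percentile 75, which leaves 9 members, the median was 0.080 at day 3 and 0.29 on the endogenous-labelled array against MEF, where it was -0.07 in both. With housekeeping centring it was -0.049 at day 14 against MEF, where it was 0.039. Of 93 unfloored differences of 0.5 or more, 0 changed sign after quantile normalization. Housekeeping centring could not change the sign of any, since its array medians lay only between 9.03 in MEF and 9.17 at day 3. Housekeeping centring moved the median of all genes above the floor to -0.12 at day 3 against MEF, where it was 0.03, and the share of higher genes among all calls to 32.4%, where it was 46.7%. That share was 50.7% under this centring at day 14 against MEF, where it was 62.6%, and 57.7% after quantile normalization for sorted cells against MEF, where it was 69.1%. Leaving out the endogenous-labelled array, chosen after seeing the data, gave 7 members with a 2-fold range in place of 9, with no share of all genes computed beside it. No paired analysis was possible because each group has 1 array. No array has a replicate, so each value above rests on single arrays.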
